A study of Mus musculus with 4 samples.

Results

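Cd8a and Cd8b1, the genes of the alpha and beta chains of the CD8 coreceptor, were followed in DNase-seq libraries labelled as naive CD8 T cells, together with the chromatin around them. Both genes lie on the plus strand of mouse chromosome 6 (build GRCm38, mm10). Cd8b1 runs from 71322788 to 71337494 and Cd8a from 71373427 to 71379173, so their annotated starts are 50.6 kb apart and 35.9 kb separate the end of Cd8b1 from the start of Cd8a. The region was set by annotation alone, from 25 kb before the Cd8b1 body to 50 kb after the Cd8a body, as chr6:71297788-71429173 (131 kb). These are 2 of 21951 annotated protein-coding genes. When the peaks of all libraries were joined wherever they shared at least 1 base, the region held 17 of 86936 accessible sites, numbered 1 to 17 here in their order along the chromosome.

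CD8 is the coreceptor of T cells that recognise peptides on MHC class I. Its alpha chain carries the cytoplasmic motif that binds the kinase Lck, and on conventional CD8 T cells it pairs with the beta chain, which is encoded by the neighbouring gene. Expression of both mouse genes depends on a cluster of stage-specific enhancers spread between and around them. Runx3 and Runx1 with their partner Cbfb, Bcl11b, Ikaros proteins and chromatin remodellers act at these enhancers, while MAZR (gene Patz1) and ThPOK (gene Zbtb7b) are known as repressors of the locus. None of the sites was given an enhancer's name here, because no file used holds the enhancers' coordinates.

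DNase-seq maps open chromatin by sequencing the ends left where DNase I cuts nuclear DNA. All 4 libraries are labelled as primary T cells, CD8-positive, alpha-beta, naive and resting, of adult virgin female B6CASTF1/J mice aged 2 months, an F1 cross of C57BL/6J and CAST/EiJ, and they form a single group labelled replicates 1 to 4 with no control or other cell type. The labels give each library its own biosample but a single donor identifier, and do not say how the cells were purified or whether each library came from a separate animal, so the spread between libraries may be technical. Reads of a hybrid were placed on a single build, so the CAST/EiJ copy of each site was read through the C57BL/6J sequence.

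The libraries differ in depth, and 2 of them stand apart at the genes described here. The longer of the peak lists had 69413, 70552, 51121 and 20647 entries in replicates 1 to 4. The spacing of the lowest peak heights corresponded to 109, 62.9, 91.5 and 24.3 M tags. The libraries labelled replicates 3 and 4 had a peak at the Cd8b1 promoter but none at the Cd8a promoter, and their calls across the region were few. Counts and densities are therefore given library by library, with the values of replicates 1 and 2 alone beside the means.

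The sequences below, from the GRCm38 reference, are those of both promoters and of the sites with the highest mean height outside them, apart from site 14, which lies partly in the untranslated end of Cd8a. They are shown because the calls and footprints described later fall within them. Capitals mark bases inside a footprint, a short stretch protected from DNase I within open chromatin, in at least 1 library. The promoter sequences stop at the base before the annotated start.
Cd8b1 promoter, site 4, chr6:71322488-71322787, plus strand: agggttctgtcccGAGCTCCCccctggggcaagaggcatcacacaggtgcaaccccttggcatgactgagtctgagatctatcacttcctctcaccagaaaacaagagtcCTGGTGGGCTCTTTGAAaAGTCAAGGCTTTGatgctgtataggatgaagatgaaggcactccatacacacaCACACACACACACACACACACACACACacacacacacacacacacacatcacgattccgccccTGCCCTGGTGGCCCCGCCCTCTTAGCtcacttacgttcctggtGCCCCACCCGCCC
Cd8a promoter, site 13, chr6:71373281-71373426, plus strand: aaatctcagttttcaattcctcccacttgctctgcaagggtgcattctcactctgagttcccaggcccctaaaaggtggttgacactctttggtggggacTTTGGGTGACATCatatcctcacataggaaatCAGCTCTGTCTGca
Site 1, chr6:71298861-71299060, plus strand: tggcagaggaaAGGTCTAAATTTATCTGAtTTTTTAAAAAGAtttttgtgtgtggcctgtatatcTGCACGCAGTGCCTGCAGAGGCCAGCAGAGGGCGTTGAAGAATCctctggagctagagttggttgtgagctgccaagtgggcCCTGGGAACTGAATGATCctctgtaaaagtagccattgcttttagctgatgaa
Site 3, chr6:71307641-71307860, plus strand: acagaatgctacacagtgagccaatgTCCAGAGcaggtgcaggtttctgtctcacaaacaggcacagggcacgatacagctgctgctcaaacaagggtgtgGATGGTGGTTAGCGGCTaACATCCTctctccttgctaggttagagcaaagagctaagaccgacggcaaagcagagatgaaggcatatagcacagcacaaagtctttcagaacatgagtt
Site 9, chr6:71351301-71351487, plus strand: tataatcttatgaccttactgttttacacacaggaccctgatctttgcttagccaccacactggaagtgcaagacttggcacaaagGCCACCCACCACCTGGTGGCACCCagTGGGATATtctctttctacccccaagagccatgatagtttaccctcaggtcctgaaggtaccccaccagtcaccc
Site 12, chr6:71369481-71369780, plus strand: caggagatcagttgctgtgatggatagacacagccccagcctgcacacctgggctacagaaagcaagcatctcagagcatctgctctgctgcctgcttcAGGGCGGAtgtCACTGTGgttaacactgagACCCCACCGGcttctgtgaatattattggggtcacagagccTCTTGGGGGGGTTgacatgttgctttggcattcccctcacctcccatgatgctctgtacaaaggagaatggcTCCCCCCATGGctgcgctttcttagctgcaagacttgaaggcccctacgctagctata
Site 16, chr6:71399301-71399480, plus strand: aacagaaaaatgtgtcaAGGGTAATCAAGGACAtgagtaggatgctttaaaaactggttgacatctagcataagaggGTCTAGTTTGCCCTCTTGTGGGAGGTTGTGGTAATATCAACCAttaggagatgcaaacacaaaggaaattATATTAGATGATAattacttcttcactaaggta
The Cd8b1 window held 6 CpG dinucleotides in 300 bases and the Cd8a window 0 in 146, with GC contents of 55.3% and 47.9%. Footprints covered 34.7% of the Cd8b1 window and 17.1% of the Cd8a window. Among the other sites, site 1 had the largest covered share at 46% and site 3 the smallest at 14.1%. Site 16 was the poorest in GC of those shown, at 36.7%, and held no CpG.

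The Cd8b1 promoter, site 4, was the only site of the region with a peak in all 4 libraries (0 sites with the shorter lists, where replicate 4 has no peak in the region). Across protein-coding genes, 58.3%, 58.3%, 56.7% and 46.1% of promoters had a peak in replicates 1 to 4. The deposited height of the Cd8b1 promoter, a depth-scaled tag density, was 4.62, 11.97, 3.27 and 1.40 in replicates 1 to 4. Relative to the library's median height over sites called in every library, these heights were 1.12, 1.43, 1.03 and 0.596 (mean 1.04 ± 0.345, SD, n = 4). Replicate 2 was highest and replicate 4 lowest. The relative height exceeded that of 47.8%, 58.7%, 40.1% and 8.04% of all called promoters in the same libraries, so the promoter stood near the middle of called promoters in replicates 1 to 3 and near the bottom in replicate 4. The deposited cut-rate list, which gives stretches where cutting is above background with a p-value or q-value for each, covered 600, 600, 600 and 357 of its 600 bases. The lowest cut-rate value within it was 1.82e-22, 8.29e-15, 8.06e-13 and 0.0034 in the same order.

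The extent of the Cd8b1 promoter peak was not the same in each library. In replicate 1 it was 400 bp wide and in replicate 2 only 100 bp. Replicate 3 had nested calls of 600 and 260 bp, and replicate 4 had separate calls of 200 and 87 bp. The longest of these, in replicate 3, reached from 71322281 to 71322880. Smyd1, which encodes a histone methyltransferase of heart and skeletal muscle and was once named for lying opposite the CD8 beta gene, is annotated on the minus strand with transcripts that start 555 and 582 bp before the Cd8b1 start. Its other annotated starts are at least 60.5 kb away. With a promoter taken as 1 kb on each side of any annotated start, the same peak was counted for Cd8b1 and for Smyd1, and openness belonging to either gene cannot be told apart here.

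**Figure D1:**
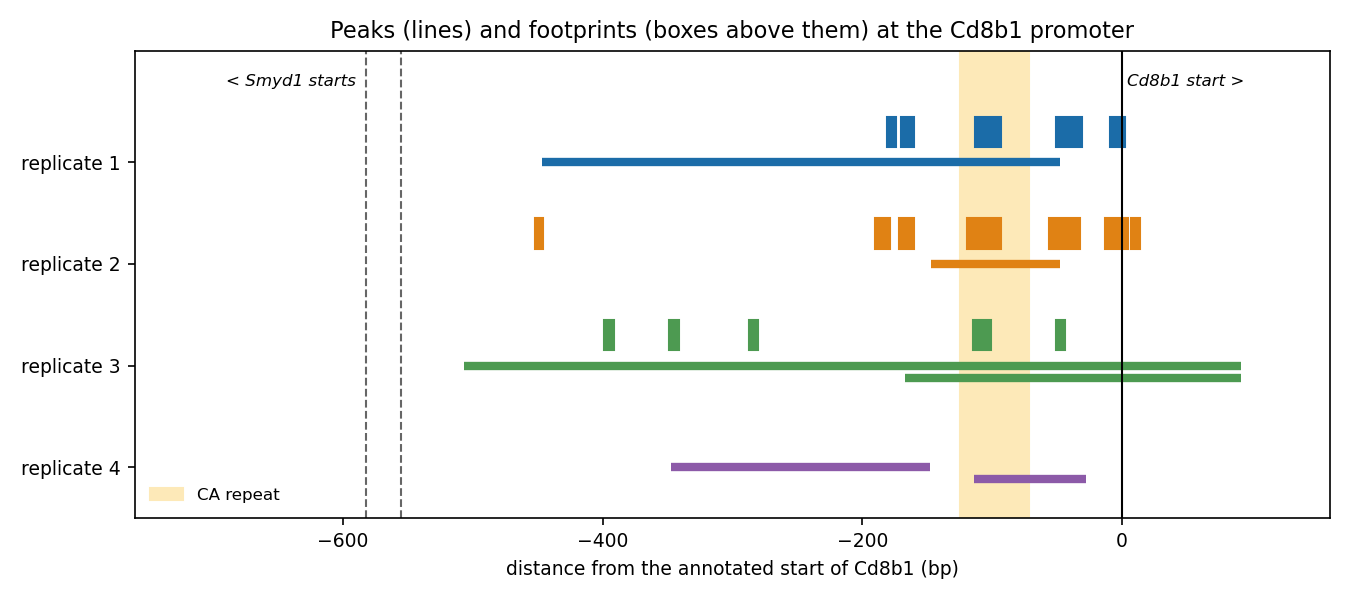
Peaks (lines) and footprints (boxes) of each library against distance from the annotated Cd8b1 start in bp, with the Smyd1 starts dashed and a CA repeat shaded. Footprints of replicates 1, 2 and 3 coincide at the repeat and just before the Cd8b1 start, while replicate 4 has peaks but no footprint.

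Footprints at the Cd8b1 promoter numbered 5, 7, 5 and 0 in replicates 1 to 4. At 2 places they overlapped in replicates 1, 2 and 3. The upstream place, 71322669 to 71322695, lies inside a run of 27 CA repeats from 71322663 to 71322716, whose part in the call was not tested. The other, 71322732 to 71322757, begins 56 bp before the annotated start. It contains a GGGNGGG match, the core of sites bound by KLF and SP factors, on the minus strand at position 257 of the printed window. The footprints of replicates 1 and 2 hold this match whole, while that of replicate 3 ends at 71322744, the first coordinate of the match. At 3 further places footprints were shared by replicates 1 and 2. Those from 71322598 to 71322614 and from 71322616 to 71322628 hold or touch the CTTTGA matches at positions 121 and 137, the core recognised by TCF/LEF factors. The last, from 71322775 to 71322793, spans the annotated start and includes overlapping GGGNGGG matches at positions 290 and 294. Replicate 3 lacked the footprints of replicates 1 and 2 at the CTTTGA matches. It had footprints at 71322389, 71322439 and 71322501, on the Smyd1 side of the promoter. Replicate 2 also had a footprint on that side, from 71322336 to 71322342.

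The Cd8a promoter, site 13, had a peak of relative height 0.498 in replicate 1 and 0.366 in replicate 2, and no peak in replicates 3 and 4. Among called promoters these exceeded 25.1% and 21.2% in their libraries. Cut-rate intervals covered 269, 219, 9 and 0 of the 280 bases. The 9 bases in replicate 3 carried a value of 0.0441, close to the 0.05 limit of the list, against lowest values of 2.67e-06 and 0.00013 in replicates 1 and 2. Footprints numbered 3, 1, 0 and 0. None of those in replicate 1 overlapped the one in replicate 2, so no footprint at the Cd8a promoter was seen in more than 1 library.

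Depth was set beside the missing Cd8a calls. The lesser of the heights in replicates 1 and 2 corresponds to 106 tags on the scale of replicate 3, more than 54.7% of that library's own peaks. On the scale of replicate 4 it corresponds to 20.8 tags, more than 6.06% of its peaks. The part of depth in the missing calls was not tested.

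The Cd8b1 promoter was higher than the Cd8a promoter in 4 of 4 libraries, or in 3 of 4 with the shorter lists, where replicate 4 has neither peak and the mean difference was 0.507. The difference in relative height, Cd8b1 minus Cd8a and with a missing peak set to 0, was 0.618, 1.07, 1.03 and 0.596 in replicates 1 to 4 (mean 0.828 ± 0.255, SD, n = 4). An exact two-sided sign-flip permutation test over libraries gave p = 0.125, the smallest value that 4 libraries allow, so the design cannot reach 0.05. In replicates 1 and 2 alone the mean difference was 0.843.

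**Figure D2:**
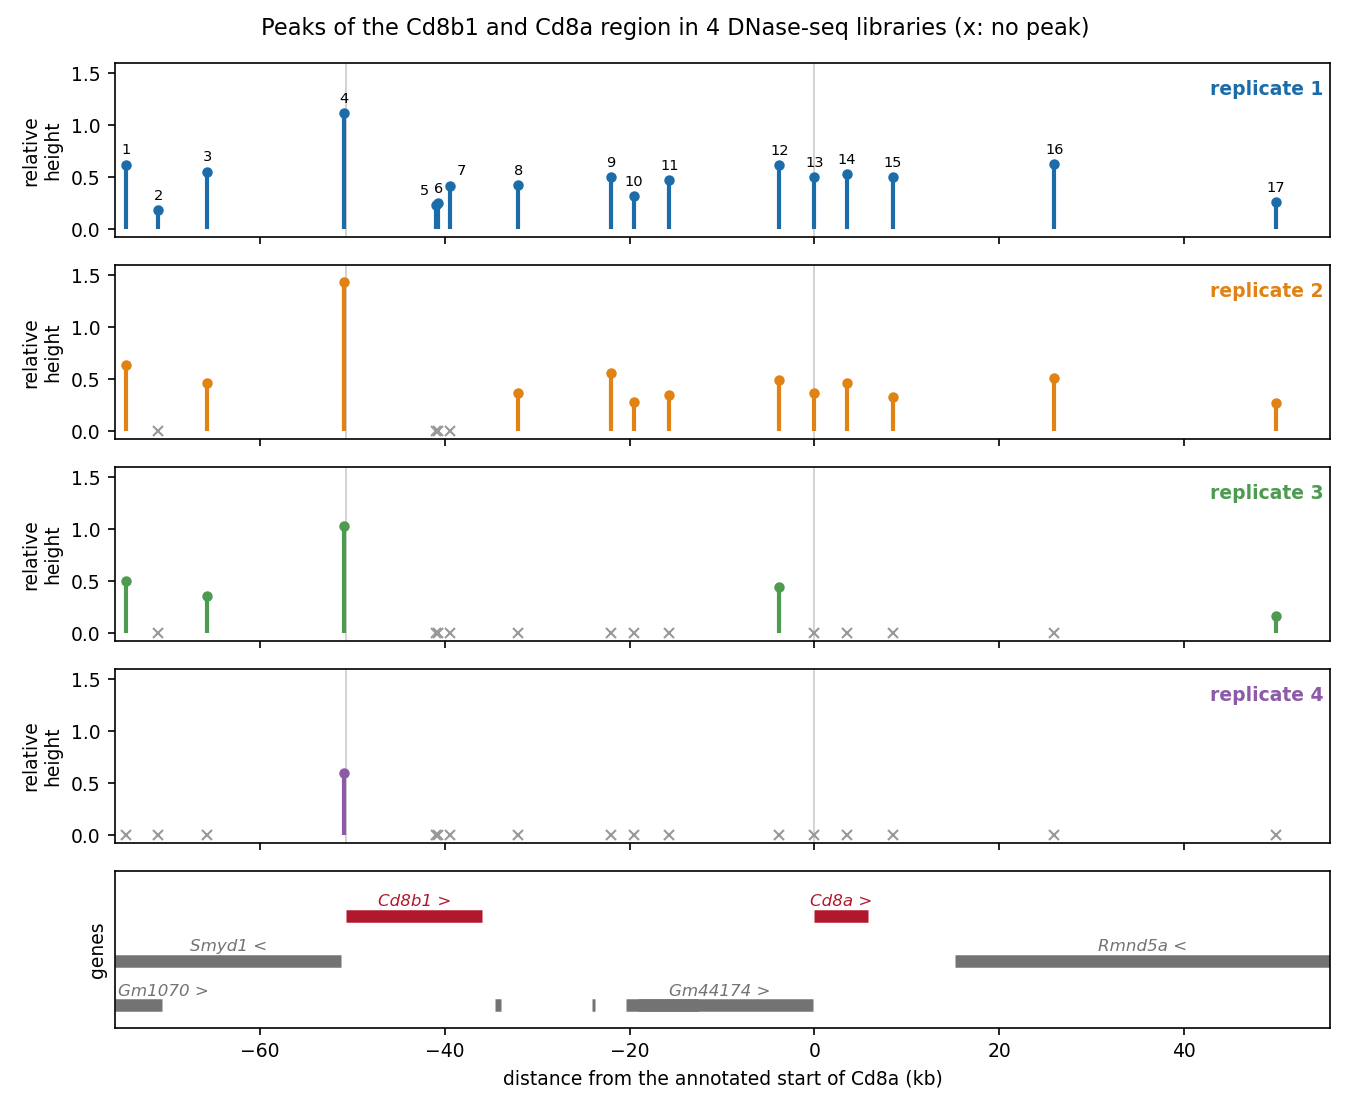
Relative height of the 17 sites against distance from the annotated Cd8a start in kb, for each library, with gene bodies below (arrows give the strand) and crosses where a library had no peak. Replicates 1 and 2 show peaks on both sides of Cd8a, replicate 3 lacks most of them, and replicate 4 keeps the Cd8b1 promoter alone.

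Beyond the promoters, 15 sites were spread over the region. Sites 1, 2 and 3 lie 23.8, 20.3 and 15.0 kb before the Cd8b1 start, within introns of Smyd1. Site 1 reached relative heights of 0.622, 0.638 and 0.498 in replicates 1 to 3 and no peak in replicate 4, and was the highest site outside the promoters by its mean. It held 4 footprints in each of replicates 1, 2 and 3, and those at 71298891 to 71298902 and at 71298926 to 71298969 overlapped in all of these libraries. Site 3 had 0.553, 0.461 and 0.361 in replicates 1 to 3. Its footprint at 71307742 to 71307758 was shared by replicates 1 and 2, while the footprint of replicate 3 began 2 bp beyond it, at 71307760.

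Within Cd8b1, sites 5, 6 and 7 were called in replicate 1 alone, at relative heights of 0.233, 0.249 and 0.42. Sites 5 and 7 overlap coding exons and site 6 an intron. Site 7 held 4 footprints in replicate 1. In replicate 2, cut-rate intervals covered 20.6% of site 7 although no peak was called there, and 0 bases of sites 2, 5 and 6.

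Between the genes lie sites 8 to 12, the last 3 of them in the lincRNA Gm44174, at 32.0, 22.0, 19.5, 15.7 and 3.8 kb before the Cd8a start. All 5 had peaks in replicates 1 and 2, with relative heights of 0.316 to 0.613 in replicate 1 and 0.276 to 0.556 in replicate 2. Site 12, the nearest to Cd8a, was the only site of this stretch with a peak in replicate 3, at 0.443, against 0.613 and 0.491 in replicates 1 and 2. In replicate 3 the peak was 59 bp wide, against 300 and 280 bp in replicates 1 and 2, and contained no footprint. At site 9 the footprints of the 2 libraries nearly coincided: calls from 71351388 to 71351410 in replicate 1 and from 71351387 to 71351410 in replicate 2 differed by 1 base at a single end.

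Downstream of the Cd8a start, site 14 at 3.5 kb falls on the last coding exon and untranslated end of Cd8a, and site 15 at 8.5 kb lies past the gene. Their relative heights were 0.531 and 0.5 in replicate 1 and 0.465 and 0.331 in replicate 2, with no peak and no cut-rate interval in replicates 3 and 4. Sites 16 and 17, at 26.0 and 49.9 kb, lie in introns of Rmnd5a, the gene of a ubiquitin ligase subunit. Site 16 had 0.624 and 0.51 in replicates 1 and 2 and nothing in the others. Its edge is 8 bp from the annotated start of a shorter Rmnd5a transcript, so it also falls within 1 kb of a protein-coding start. Site 17 was the lowest site called in 3 libraries, at 0.262, 0.269 and 0.165 in replicates 1 to 3.

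Of the 17 sites, 17, 13, 5 and 1 had a peak in replicates 1 to 4, against 76.7%, 77.1%, 56.2% and 22.4% of all sites genome-wide. The share in replicate 2 was thus close to the genome's, at 76.5%, and those in replicates 3 and 4 were lower, at 29.4% and 5.88%. Called in 4, 3, 2 and 1 libraries were 1, 4, 8 and 4 sites, which is 5.88%, 23.5%, 47.1% and 23.5% of the region's sites, against 20.2%, 27.2%, 17.3% and 35.2% of all sites. The class seen in exactly 2 libraries was in every case replicates 1 and 2, and it comprised sites 8 to 11 and 13 to 16, an unbroken run around Cd8a interrupted only by site 12.

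**Figure D3:**
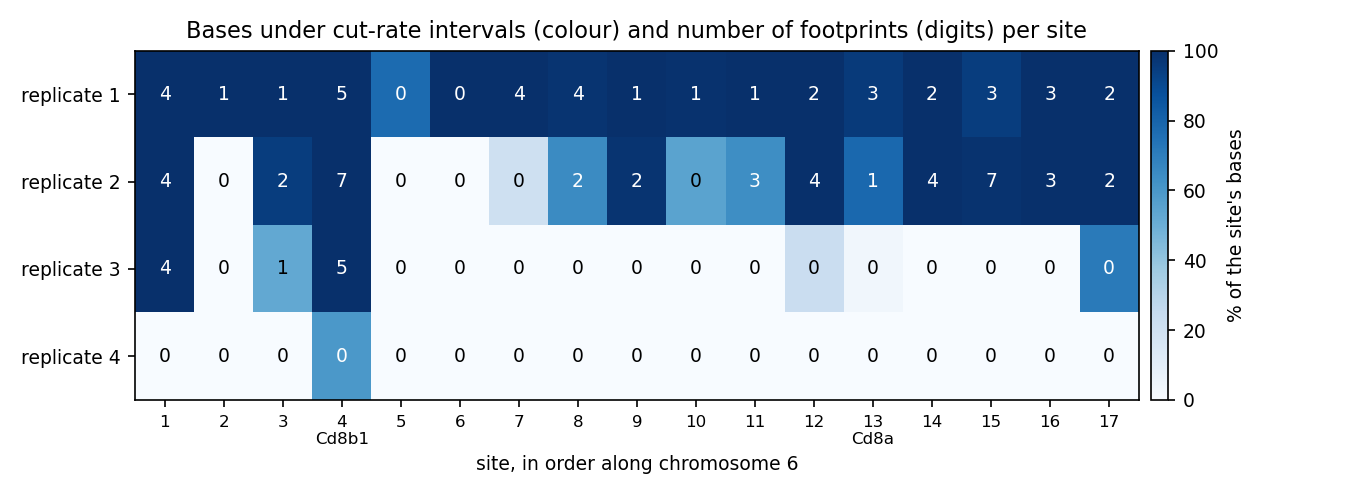
Share of each site's bases under cut-rate intervals (colour, in %) and number of footprints (digits) for the 17 sites, with 1 row for each library. From site 8 to site 17, replicates 1 and 2 have at least 55% of each site covered, replicate 3 has 23% of site 12, 3.21% of site 13 and 71.1% of site 17, and replicate 4 has none.

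The cut-rate list comes from the same reads as the peaks and is no independent measurement. In the region it held 5208, 3772, 1316 and 357 bases in replicates 1 to 4. Site 16 had a lowest value of 2.08e-13 in replicate 1 and 7.79e-11 in replicate 2, with no interval at all in replicates 3 and 4. Site 17, which is less high than site 16, had 6.01e-12, 1.41e-08 and 0.00921 in replicates 1 to 3.

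Peaks were denser in the region than over chromosomes 1 to 19 and X in each library, by 4.91, 3.98, 2.35 and 1.94 times in replicates 1 to 4. The replicate 4 value rests on 2 calls, both at the Cd8b1 promoter, and with the shorter lists, where it has none, its log2 ratio with 0.5 added was -0.45. On the log2 scale the mean was 1.62 ± 0.63 (SD, n = 4), or 2.14 for replicates 1 and 2 alone, and the exact two-sided sign-flip permutation test gave p = 0.125. Footprints numbered 39, 41, 10 and 0, which is 4.58, 5.51 and 1.45 times the genome-wide density in replicates 1 to 3. Replicate 4 had none against 26149 in its whole list. With 0.5 added to each count because of this 0, the mean log2 ratio was 0.98 ± 1.78 (SD, n = 4), or 2.35 for replicates 1 and 2 alone, and the exact sign-flip permutation p was 0.375. Bases under cut-rate intervals were 3.85, 3.10, 1.24 and 1.04 times as dense as genome-wide in replicates 1 to 4. Their mean log2 ratio was 0.99 ± 0.94 (SD, n = 4, exact sign-flip permutation p = 0.125), or 1.79 for replicates 1 and 2 alone. In replicates 3 and 4 the region was therefore close to the genome average by this measure.

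These densities depend on how the peaks are counted. Within peaks, the log2 ratio of footprints per base, region over genome, was -0.04, 0.48, -0.36 and -1.72 in replicates 1 to 4 (mean -0.41, exact sign-flip permutation p = 0.625). The replicate 4 value is set by the 0.5 added to its count of 0, and the other libraries lie on both sides of 0.

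Joined over libraries, the region's footprints formed 63 places. Of these, 43 were seen in 1 library, 16 in 2 and 4 in 3, namely 2 at site 1 and 2 at the Cd8b1 promoter. Of the replicate 1 footprints in the region, 53.8% overlapped a footprint of replicate 2, against 55.4% of all replicate 1 footprints. Of the replicate 2 footprints, 46.3% overlapped one of replicate 1, against 62.0% of all. Replicate 3 had only 10 footprints in the region, and they overlapped 12.8% of those of replicate 1 and 12.2% of those of replicate 2, against 45.4% and 47.7% of all footprints. Taken the other way, 50% of these 10 overlapped a footprint of replicate 1 and 60% one of replicate 2, against 58.8% and 55.3% of all replicate 3 footprints, so those that were called matched about as often as elsewhere.

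The sites open in both replicates 1 and 2 were then looked up in the other libraries. Of 13 such sites in the region, 5 had a peak in replicate 3 (38.5%) and 1 in replicate 4 (7.69%). Genome-wide, 77.5% of 52572 such sites had a peak in replicate 3 and 33.9% in replicate 4. Among sites with replicate 1 heights in the same range, the shares were 93.2% in replicate 3 and 40% in replicate 4. For a closer match, sites within 1 kb of a protein-coding start were left out, a choice made after seeing the data. Of the 10 region sites that remain, 4 had a peak and 4 a cut-rate interval in replicate 3, and 2 had a footprint. Of 10725 genome sites in that height range, 90.3% had a peak, 92.2% a cut-rate interval and 83.4% a footprint in replicate 3. In replicate 4 the region's counts were 0 for all 3 measures, against 18.7%, 21.5% and 3.64% of the genome sites.

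**Figure D4:**
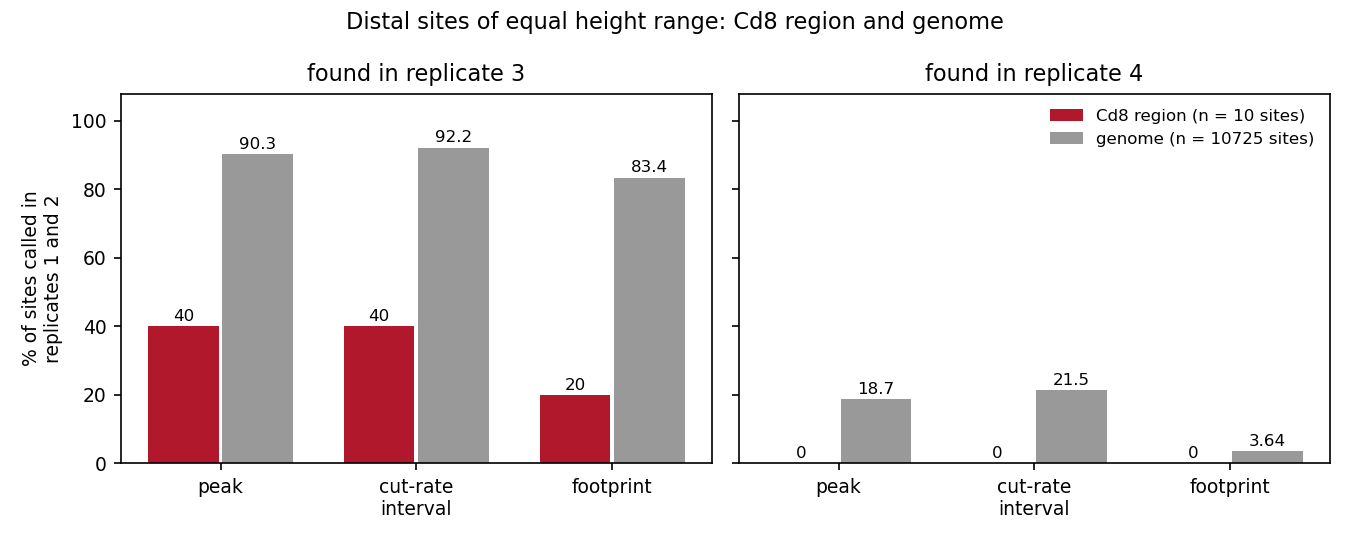
Share (in %) of sites called in replicates 1 and 2 that had a peak, a cut-rate interval or a footprint in replicate 3 (left) and replicate 4 (right), for 10 sites of the Cd8 region (red) and 10725 genome sites of the same height range (grey), all over 1 kb from a protein-coding start. In replicate 3 the region lies at 40% or less where the genome lies above 83%.

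The calls missing from replicate 3 lay mostly around Cd8a. Within 25 kb of its body, 1 of the 8 sites shared by replicates 1 and 2 had a peak in replicate 3 (12.5%) and 0 in replicate 4. Around Cd8b1 it was 3 of 7 (42.9%) and 1 of 7 (14.3%). Sites 9, 10 and 11 lie in both windows and are counted for both genes. Taking every protein-coding locus with at least 8 such sites, the number found at Cd8a, the median share was 80% in replicate 3 and 36.4% in replicate 4. Cd8a itself was the only one of these 3852 loci (0.026%) with a share in replicate 3 as low as 12.5%. The locus was picked out with earlier results of these libraries known, so its place in that order is a description.

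Markers of T cells and of other cell types are set beside these calls, and their counts are to be read against the 58.3%, 58.3%, 56.7% and 46.1% of all protein-coding promoters with a peak in replicates 1 to 4. Of 14 T cell markers, 13, 13, 12 and 5 had a promoter peak in replicates 1 to 4, and their summed relative height was 10.9, 9, 7.69 and 3.98. Trac was at 0 in each library, but it is annotated as a constant gene segment, and the start used is that of the segment. Of 14 B cell markers, 10, 9, 11 and 8 were called, and the sum was 3.44, 4.08, 6.16 and 6.42. The median relative height of this list was 0.0933, 0.112, 0.347 and 0.509 in replicates 1 to 4. Fcer2a and Spib were among its members at 0 in each library, and do not stand for the list. Of 7 helper T cell markers, 5, 5, 4 and 2 were called, with a sum of 3.26, 3.35, 3.96 and 2.60. Foxp3 was the highest of them in each library, at 1.47, 2.00, 1.71 and 1.47, while Cd4 and Cd40lg were at 0 throughout. The Foxp3 value is the highest peak within 1 kb of any of its annotated starts. Which start carries that peak was not looked up here, so it need not be the start used in helper cells. In replicate 4 the summed height of the B cell list was above that of the T cell list, and in replicates 1 to 3 it was below. The part of these marker differences in the missing Cd8 sites was not tested. In bulk libraries, fewer CD8 T cells and less open chromatin per cell cannot be told apart.

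Most factors known to act at the Cd8 locus had open promoters in each library. Of a list of 26, 26, 26, 25 and 21 had a promoter peak in replicates 1 to 4. Of all protein-coding promoters, 58.3%, 58.3%, 56.7% and 46.1% had a peak in the same libraries. Median relative heights of the list were 0.927, 0.756, 1.12 and 1.13, against 0.253, 0.223, 0.289 and 0 over all protein-coding genes. Smarca4, the ATPase of the BAF remodelling complex, had the highest mean at 3.71, 3.54, 3.90 and 3.89 in replicates 1 to 4. Ets1, a T cell transcription factor, had 2.34, 2.61, 2.66 and 2.96. Cbfb, the partner subunit of Runx proteins, had 2.17, 2.73, 2.05 and 2.77. Dnmt1, the maintenance DNA methyltransferase, had 2.43, 2.35, 2.97 and 2.37.

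Runx3, which activates Cd8 enhancers in CD8 lineage cells, had 1.95, 2.02, 1.49 and 1.40 in replicates 1 to 4. Zbtb7b, the repressor that directs helper cell fate, had 0.251, 0.358, 0.746 and 1.12. Patz1, another repressor of the locus, had 0.947, 0.695, 1.23 and 1.12. Runx3 was lowest in replicate 4, and both repressors had their lower values in replicates 1 and 2. The latter is not particular to repressors. The median of all 26 listed factors was also lower in replicates 1 and 2, at 0.927 and 0.756, than in replicates 3 and 4, at 1.12 and 1.13. Libraries split by their Cd8a calls are not groups of the study, and no test was made between them.

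Partners of the coreceptor in signalling and recognition were called as 12, 12, 12 and 7 of 13, against 58.3%, 58.3%, 56.7% and 46.1% of all protein-coding promoters, with median relative heights of 1.04, 0.813, 0.849 and 0.772. Cd4, the gene of the helper cell coreceptor, was the member without a peak in any library. H2-D1, a class I heavy chain gene, had 6.23, 7.67, 5.36 and 4.54 in replicates 1 to 4, and H2-K1, another, had 2.48, 2.63, 2.41 and 2.28. Class I genes are near copies of one another, so tags may be split between them. B2m, their common light chain, had 2.48, 2.84, 2.27 and 2.23. Cd3d, which encodes a CD3 subunit, had 2.04, 1.84, 1.47 and 1.12 and was lowest in replicate 4.

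**Figure D5:**
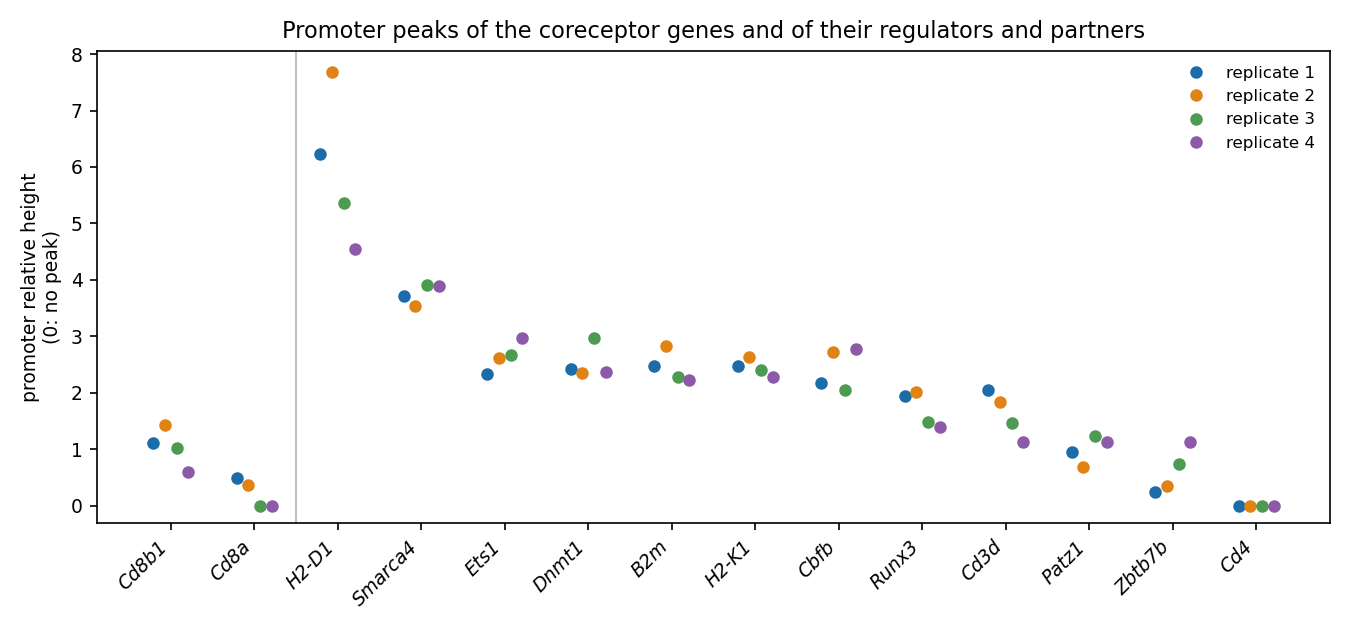
Promoter relative height (0 where no peak) of Cd8b1 and Cd8a, left of the line, and of the named regulators and partners, with 1 point for each library. Cd8a is at 0 in replicates 3 and 4, Cd4 is at 0 in all 4 libraries, and Zbtb7b has its highest point in replicate 4.

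Short motifs of factors known in T cells were counted on both strands in the central 200 bases of each site. E-boxes (CAGCTG or CAGGTG) were present in 8 of 17 region sites (47.1%), against 28.9% of all sites. The RUNX core TGTGGT was in 4 (23.5%, against 19.3%), the ETS cores CCGGAA or CAGGAA in 4 (23.5%, against 32.8%), and the Ikaros core TGGGAA in 4 (23.5%, against 16.4%). The TCF/LEF core CTTTGA was in 3 (17.6%, against 12.7%), and GGGNGGG of KLF and SP factors in 3 (17.6%, against 28.5%). The GATA cores AGATAA or TGATAA were in 2 (11.8%, against 11.2%), the AP-1 core TGANTCA in 2 (against 5.75%) and the STAT core TTCNNNGAA in 2 (against 5.18%). The pattern AGGNGGC, used here for CTCF, was in 2 (11.8%, against 26.3%), and may overlap GGGNGGG. It does not match AGAGGGC, which lies inside footprints of sites 1 and 16 on one or the other strand and was not counted. The letters TGACCA, used for BCL11 factors, were in 0 of 17, against 9.18% of all sites. With 17 sites, 1 site more or less is about 6% of the region, and a match describes letters, not binding.

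Several matches fell inside footprints and others outside. In site 16 the TGTGGT match at position 104 of the printed sequence lay wholly within a replicate 2 footprint and at the edge of a replicate 1 footprint. In site 12 the TGTGGT match at position 114 had 4 of its 6 bases in a replicate 2 footprint. In site 9 the CAGGTG match on the minus strand at position 96 lay within the footprint shared by replicates 1 and 2. In site 1 the TGGGAA match at position 150 lay wholly within a replicate 2 footprint and partly within one of replicate 1. Outside any footprint lay the TGTGGT match of site 9, the CAGGTG and STAT matches of site 12, and both E-boxes of site 3. The same held for the CAGGAA and CAGGTG matches of the Cd8b1 window. In the printed Cd8a window the sole match was a minus-strand TGGGAA at position 58, outside any footprint. The region's central windows had a median GC content of 51% and a median of 2 CpG, against 52% and 4 over all sites.

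The promoters nearest to the members in level were picked from all protein-coding genes by these same values, so their likeness is set by the choice. By the root mean square difference in promoter relative height over the 4 libraries, Cd8a was most like Gm49510 (0.0332), Enthd1 (0.0657), Prss50 (0.0799), Tcf7 (0.0812) and Il12rb1 (0.0842). Tcf7, the T cell transcription factor TCF-1, had 0.349 and 0.301 in replicates 1 and 2 and no peak in replicates 3 and 4, the same order as Cd8a. Cd8b1 was at 0 from Smyd1, with which it shares its peak, and next to Agtrap (0.0680), Agap2 (0.0752), Akap12 (0.0779) and Hgh1 (0.0798). The main promoter of Rmnd5a, outside the region on the far side of Cd8a, had 2.45, 2.29, 3.02 and 3.75 in replicates 1 to 4, so it was called in each library and was higher in replicates 3 and 4.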

How the data were processed

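DNase-seq of 4 libraries, labelled replicates 1 to 4 of a single group, was taken from the deposited lists. The deposited peak heights are a signal, scaled to depth by the authors for each library alone, on build mm10 per the labels. Each deposited footprint carries 0.01, a p-value or q-value limit. Each deposited cut-rate interval carries its own p-value or q-value, below 0.05. Aligner and callers were not given in the sources used here. For each library the longer of 2 peak lists was used. Without read counts, counting error is unknown. Lowest heights were whole multiples of a step, within 0.05 of a step for 100% of values tested, and its reciprocal was read as M tags.

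Peaks were joined where they shared at least 1 bp. A relative height is the height over the library's median at jointly called sites, which was 4.14, 8.35, 3.18 and 2.34 in replicates 1 to 4, and a missing peak counts as 0. Gene models are GENCODE release 21, promoters lie within 1 kb of any annotated start, and sequence is from RefSeq's GRCm38.p6. The RefSeq promoter table held an entry for 1 of the 2 genes, so both promoters were read from the genome. Over libraries, an exact two-sided sign-flip permutation test was used, with a threshold of 0.05. Samples of 1 group allow no other comparison.

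The members, region and gene lists (T cell, helper T cell, B cell, NK cell, myeloid and dendritic, and erythroid markers, factors reported at the Cd8 locus, coreceptor partners) were chosen with earlier results of these data known. A B cell marker counted in its list is not reported here by name. Of the last 2 lists, up to 4 genes with the highest mean among those called in 4 libraries, up to 2 called in none, and Runx3, Patz1, Zbtb7b and Cd4 are named. Alternatives were the shorter lists, an equal number of highest peaks, 50% overlap, other region bounds, promoter windows of 500 bp and 2.5 kb, other scales, stricter cut-rate limits, chromosome 6 alone and leaving out each library. Chosen after seeing the data were replicates 1 and 2 alone, the sites over 1 kb from protein-coding starts, and the minimum of 8 sites for a locus, taken from the number at Cd8a. Steps were tested on simulated lists. Python 3.11.15, numpy 2.4.6, pandas 2.3.3 and matplotlib 3.10.9 were used.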

Additional observations from a re-analysis of the deposited data

Results flagged for a closer look

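Of 36 sets of 4 library values examined, 5 held a library whose gap to the other 3 takes up most of their whole range. For 4 of them, sites 2, 5, 6 and 7, this says no more than that the site was called in a single library, since the other values are all 0. Sites 2, 5, 6 and 7 had relative heights of 0.18, 0.233, 0.249 and 0.42 in replicate 1, the library with the most tags, and no peak in replicates 2, 3 and 4. Sites 5, 6 and 7 lie within Cd8b1 and site 2 within an intron of Smyd1. The promoter of Dnmt1, the maintenance DNA methyltransferase, stood at 2.97 in replicate 3, against 2.43, 2.35 and 2.37 in replicates 1, 2 and 4. Chance gives such a gap in about 1 of 20 sets.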

How the results depend on the processing

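The mean log2 peak density of the region over the genome, 1.62, stayed between 1.27 and 2.24 under the other peak lists, bounds and genome, and between 1.40 and 1.84 with a library left out; with the shorter lists replicate 4 alone was at -0.45. The Cd8b1 minus Cd8a difference kept its direction in the mean under each alternative run, was 0.507 with the shorter lists, where replicate 4 is at 0 for both promoters, and was 0.747 to 0.905 with a library left out. Footprint density, at a mean log2 of 0.98, was -0.41 when counted inside peaks per base under peaks, and 0.48 to 1.77 with a library left out. Cut-rate coverage, at 0.99, was 0.19 with values below 0.01, -1.33 with values below 0.001, where a library with no base left takes the added 0.5, and 0.02 for the gene bodies with no flank. It was 0.67 to 1.30 with a library left out. The 17 sites became 10 with an equal number of highest peaks and 11 with no flank, and 14 to 17 with a library left out. The 1 site called in all libraries became 0 with the shorter lists or with 50% overlap, 1 to 5 with a library left out (5 without replicate 4), and 13 in replicates 1 and 2 alone. The 13 sites called in replicates 1 and 2 became 7 with equal numbers of peaks and 8 with no flank. Of these, the 5 found in replicate 3 became 2 with the shorter lists, 3 with equal numbers, 3 with 50% overlap and 2 with no flank. The 1 found in replicate 4 became 0 with the shorter lists or 50% overlap. Joining at 50% overlap removes no peak, and it gave 22 sites. The causes of these shifts were not tested. Replicate 4 had the fewest tags, and its lowest called relative height was 0.158, against 0.0178, 0.0152 and 0.0241 in replicates 1, 2 and 3. The part of depth in this difference was not tested. No comparison between groups, paired or not, was possible because the libraries form 1 group.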

Other observations

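Markers of other blood cell types were counted in the same way, to be read against the 58.3%, 58.3%, 56.7% and 46.1% of all protein-coding promoters called in replicates 1 to 4. Of 7 NK cell promoters, 2, 2, 1 and 0 had a peak in replicates 1 to 4, with summed relative heights of 0.693, 0.411, 0.409 and 0, and Ncr1, Klrb1c, Klra8, Klrk1 and Klre1 had none in any library. Of 12 myeloid and dendritic promoters, 6, 6, 5 and 1 were called, with sums of 0.951, 0.764, 0.804 and 0.333, and Csf1r, Fcgr1, Adgre1, Clec9a and Xcr1 had none in any library. Of 5 erythroid promoters, 3, 3, 2 and 1 were called, with sums of 0.83, 0.92, 0.605 and 0.281, and both globin genes of the list, Hba-a1 and Hbb-bs, had none in any library. Peaks of the region had a median width of 220, 152, 152 and 144 bp in replicates 1 to 4, against 200, 180, 200 and 198 bp over all peaks.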
